A study of Drosophila melanogaster with 4 samples.

Results

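The regions described here are the LSD1 clusters of the arm sequence nearest the centromere, on 4 chromosome arms of the fly. A cluster is a stretch of the genome that the authors listed as significantly enriched for LSD1 over input chromatin. Members are the clusters of the combined list, the one list deposited for the whole replicate set, whose midpoint lies in the 2 Mb of arm sequence nearest the centromere. In FlyBase release 5, the build in the file headers, these windows run on 2L from 21011545 to 23011544, on 3L from 22543558 to 24543557, on X from 20422828 to 22422827 and on 3R from 1 to 2000000. They held 554 of the 9853 clusters of the combined list, with 170 on 2L, 88 on 3L, 110 on X and 186 on 3R. The other arm positions of these 4 arms held 7186 clusters and are called the rest of the arm. The rule used positions only, and neither the values nor the widths of the clusters.

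LSD1 ChIP was performed on nuclei of wild-type Drosophila melanogaster larvae of the third instar, strain Oregon-R, with the antibody LSD1 Q3430. The study holds 2 ChIP libraries and 2 input libraries, and per the labels each input served the ChIP library of the same number. All 4 share strain, genotype and stage. Larval tissue was homogenised and fixed with formaldehyde, so a region marked strongly in few cells and one marked weakly in many cannot be told apart. Whether the 2 replicates are separate larval collections is not in the labels, so their spread may be technical only.

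LSD1 is encoded in the fly by Su(var)3-3 and removes methyl groups from the tail of histone H3. It acts in gene silencing and helps to establish heterochromatin, and mutations of its gene suppress position-effect variegation, the patchy silencing of genes placed next to heterochromatin. The pericentric part of each arm is where gene-rich euchromatin gives way to compact heterochromatin dense in transposon remnants and satellite repeats. The proximal part of 2L is known for the tandem repeat of the histone genes and that of X for flamenco, a piRNA locus that silences transposons. Neither locus was placed on the coordinates given here, since no gene annotation of this build was used. The arm sequences of the assembly do not all reach equally far into heterochromatin, so equal distances from a sequence end need not be equal distances from the centromere.

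The 4 arms did not share one pattern. Over the proximal 2 Mb, clusters covered fewer bases than over the rest of the arm on 3L, X and 2L, and more on 3R. On 3L coverage was 7.50% in replicate 1 and 9.36% in replicate 2, against 28.3% and 30.8% on the rest of the arm. On X it was 8.41% and 10.8%, against 22.1% and 20.1% on the rest of the arm. The proximal window of 2L had 15.4% in replicate 1 and 20.0% in replicate 2, against 23.6% and 26.7% on the rest of 2L. That of 3R had 30.6% and 35.5%, against 22.2% and 24.6% on the rest of 3R. On each arm the 2 replicate values of the proximal window lay wholly on one side of those of the rest. The combined list gave 12.9% on 3L, 16.0% on X, 27.5% on 2L and 44.4% on 3R, against 40.5%, 30.1%, 34.6% and 32.7% on the rest of these arms.

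As a ratio of the proximal window to the rest of the arm, coverage was 0.285 ± 0.028 on 3L, 0.461 ± 0.113 on X, 0.701 ± 0.067 on 2L and 1.41 ± 0.05 on 3R (SD, n = 2 libraries). A two-sided exact sign-flip permutation test of the log2 ratio gave p = 0.5 on each arm, which is the smallest p that this test can give with 2 libraries, so it cannot separate any of these values. Contrasts with the rest of the arm are given as values with their spread. The lists carry no read numbers, so the depth is unknown and no interval that needs it is given. Missing clusters and a lack of mappable reads cannot be told apart here.

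**Figure D1:**
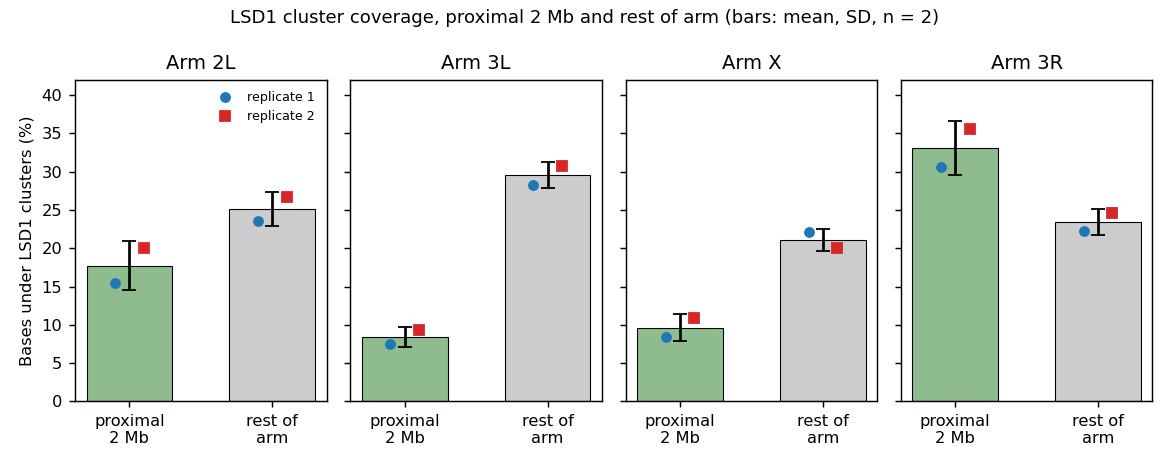
Percent of bases under LSD1 clusters in the proximal 2 Mb (left bar of each panel) and the rest of the arm (right bar), for each arm. Bars give the mean and whiskers the SD of the 2 ChIP replicates, with replicate 1 as circles and replicate 2 as squares. On 3L the proximal values of 7.50% and 9.36% lie far below 28.3% and 30.8%, and on 3R those of 30.6% and 35.5% lie above 22.2% and 24.6%.

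The shortfall was made up differently on each arm. On 3L the number of clusters per Mb was 18.5 in replicate 1 and 30.0 in replicate 2, against 52.0 and 72.9 on the rest of the arm, a density ratio of 0.384 ± 0.039 (SD, n = 2). On X the density was 26.5 and 39.5 per Mb, against 45.8 and 56.8 on the rest of the arm, a ratio of 0.637 ± 0.082. On 2L it was 40.5 and 66.0 per Mb, against 47.4 and 65.5 on the rest of the arm, a ratio of 0.931 ± 0.107, within 1 SD of equal density. Clusters were also narrower on average in these 3 windows, with a ratio of mean width of 0.742 ± 0.003 on 3L, 0.718 ± 0.084 on X and 0.756 ± 0.018 on 2L. The lower coverage of 2L thus went mainly with mean cluster width, and that of 3L mainly with cluster number. Median widths differed little on 2L, at 2275 and 2080 bp against 2314 and 2112 bp on the rest of the arm. On 3L they were 2416 and 2133.5 bp against 2503.5 and 2174 bp, and on X 1982 and 1887 bp against 2562 and 2117.5 bp. The typical cluster of 2L and 3L was thus hardly narrower, unlike the mean. On 3R both ratios were above 1, with 1.16 ± 0.07 in density and 1.22 ± 0.03 in mean width.

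Broad domains, meaning clusters over 10 kb, numbered 40 among the 554 members (7.22%), where 9.19% of the whole combined list were that wide. On 3R there were 21 of 186, on 2L 11 of 170, on X 5 of 110 and on 3L 3 of 88. In replicate 1 the counts were 13 (13.4%) on 3R, 6 (7.41%) on 2L, 2 (3.77%) on X and 2 (5.41%) on 3L. On the rest of these arms 12.5%, 11.4%, 11.9% and 12.4% were that wide in replicate 1. In replicate 2 the proximal counts were 12 (7.74%), 4 (3.03%), 2 (2.53%) and 3 (5.00%), against 7.27%, 7.63%, 5.78% and 8.22% on the rest. On 3R these few domains held 51.8% of the bases of proximal clusters in replicate 1 and 36.4% in replicate 2. The share was 38.5% and 22.7% on 3L, 32.3% and 13.8% on 2L, and 18.7% and 14.6% on X. Its value on the rest of the arms is not given here. No broad domain lay in the inner megabase, the one nearest the centromere, of 2L or 3L in any of the 3 lists. That megabase held 26, 31 and 59 clusters on 2L in replicate 1, replicate 2 and the combined list, and 10, 12 and 31 on 3L. X had 1 broad domain there in each list, among 28, 52 and 67 clusters. On 3R there were 8 of 55, 8 of 101 and 10 of 112. In the combined list 9.38% were that wide on the rest of 2L, 10.5% on 3L, 9.12% on X and 8.77% on 3R, and the replicate shares are given above. With so few clusters, the counts on 2L and 3L cannot be set apart from these shares.

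Set among all full 2 Mb windows counted outwards from the same end, the proximal window of 3L was the poorest of 12 in each of the 3 lists. That of X was the poorest of 11 in each list. The proximal window of 2L was the second poorest of 11 in replicate 1, the third in replicate 2 and the fourth in the combined list. The window of 2L from 6 to 8 Mb had 16.7 ± 1.9% and that from 10 to 12 Mb 18.0 ± 0.9%, close to the 17.7 ± 3.2% of the proximal one (SD, n = 2). On 3R the proximal window was the richest of 13 in replicate 2 and in the combined list. In replicate 1 it was the second richest, with 30.6% against 32.2% from 4 to 6 Mb. Next to it, from 2 to 4 Mb, 3R had only 14.7% and 18.5%, so high coverage at this end stopped within the window.

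**Figure D2:**
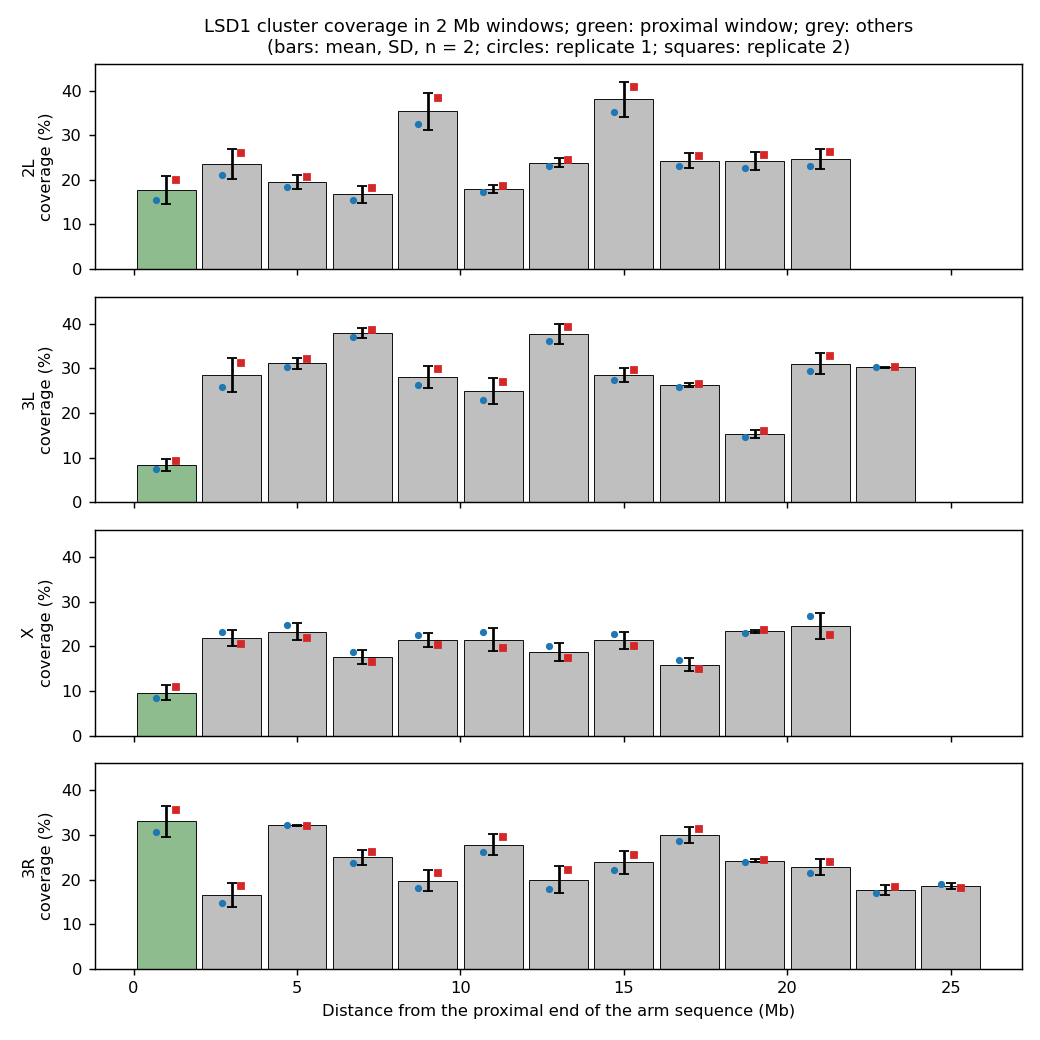
Percent of bases under LSD1 clusters in consecutive 2 Mb windows, counted from the proximal end of each arm sequence (left) outwards. Bars are means and whiskers SDs of the 2 replicates (circles for replicate 1, squares for replicate 2), and the proximal window is green. It is the lowest bar on 3L (8.43%) and X (9.63%), one of several low bars on 2L (17.7%) and the tallest on 3R (33.1%).

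In steps of 100 kb, 3L showed a long stretch of low coverage and then an abrupt change. Counted from the sequence end, its first 1600 kb stayed under 50% of the coverage of the rest of the arm in replicate 1, replicate 2 and the combined list alike. Within that stretch no step exceeded 13.6% in replicate 1, 13.8% in replicate 2 or 16.9% in the combined list. The step from 1600 to 1700 kb had 35.8%, 39.3% and 47.3%, and the next one, from 1700 to 1800 kb, 48.9%, 57.0% and 64.0% in replicate 1, replicate 2 and the combined list. Farther out coverage was lower again, with 18.2%, 21.3% and 25.7% from 1800 to 1900 kb and 0%, 1.62% and 2.61% from 1900 to 2000 kb. Of the 20 steps, 10 held no cluster base in replicate 1, 5 none in replicate 2, and 2 none in the combined list. Steps under 5% made up 70.0% of the window in replicate 1 and 55.0% in replicate 2, against 14.2% and 11.1% on the rest of 3L.

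On 2L coverage was lower towards the end in a series of uneven stages. By stretches of 500 kb from the end outwards, it was 5.87 ± 0.44%, 9.75 ± 0.11%, 23.8 ± 8.6% and 31.4 ± 4.9% (SD, n = 2). The combined list gave 9.96%, 16.4%, 40.4% and 43.3% for the same stretches. A change seen in every list lay between the step from 1000 to 1100 kb, with 0% in replicate 1, 9.32% in replicate 2, and 8.92% for the combined list, and the step from 1100 to 1200 kb, with 30.4%, 59.3% and 75.5%. An isolated richer step inside the poor stretch, from 800 to 900 kb, had 27.5%, 21.2% and 37.2%. It ended the run under 50% of the rest of the arm at 800 kb in replicate 2 and in the combined list, while in replicate 1 a step with 13.3% ended it at 300 kb. In the rich outer part the step from 1500 to 1600 kb held no cluster base in any list.

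X showed no steady gradient. By 500 kb from the end outwards its coverage was 13.2 ± 5.2%, 6.82 ± 0.95%, 14.5 ± 1.7% and 4.03 ± 0.96% (SD, n = 2), so the stretch nearest the centromere was not the poorest. The step from 100 to 200 kb had 28.1% in replicate 1, 31.3% in replicate 2, and 39.4% for the combined list, and that from 500 to 600 kb had 24.0%, 29.5% and 35.0%. The richest step, from 1400 to 1500 kb, had 34.8%, 43.9% and 50.5%. The steps from 600 to 700, 700 to 800 and 1600 to 1700 kb, in contrast, were at 0% in all 3 lists. Of the 20 steps, 3 in replicate 1 and 5 in replicate 2 lay above the coverage of the rest of X taken as a whole. The same share among the steps of the rest of X is not given here. Steps under 5% made up 45.0% of the window in replicate 1 and 50.0% in replicate 2, against 20.6% and 25.5% on the rest of X. The replicates disagreed most in the first 500 kb, where replicate 1 had 9.56% and replicate 2 16.9%.

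On 3R the order ran the other way. From the start of the arm sequence outwards, stretches of 500 kb had 35.9 ± 9.5%, 48.2 ± 3.7%, 35.4 ± 1.1% and 12.8 ± 2.0% (SD, n = 2). The first 100 kb were already covered to 32.9% in replicate 1, 39.9% in replicate 2, and 53.9% for the combined list. Coverage was highest from 800 to 900 kb, with 84.4%, 85.6% and 86.1%, and stayed at 54.3% or more in every list up to 1200 kb. In the next step, from 1200 to 1300 kb, it was 14.8%, 12.0% and 22.0%. Only 1 of 20 steps lay under 5% in each list, the one from 1700 to 1800 kb with 0%, 1.56% and 1.31%.

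Across the 20 steps of an arm, coverage and distance from the sequence end had a Spearman's rho of 0.44 in replicate 1 and 0.58 in replicate 2 on 2L, and of 0.40 and 0.64 on 3L. On X rho was -0.10 and -0.31, and on 3R -0.37 and -0.57. A positive rho means lower coverage towards the centromere. Neighbouring steps share domains and all steps of a list share one library, so these values describe the profiles and carry no p. Between the replicates the step values had Pearson's r of 0.92 on 2L, 0.97 on 3L, 0.93 on X and 0.92 on 3R, across 20 steps each, as a description of 2 libraries made from the same kind of material. Replicate 2 was the higher in 49 of the 80 steps, equal in 12 and lower in 19.

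**Figure D3:**
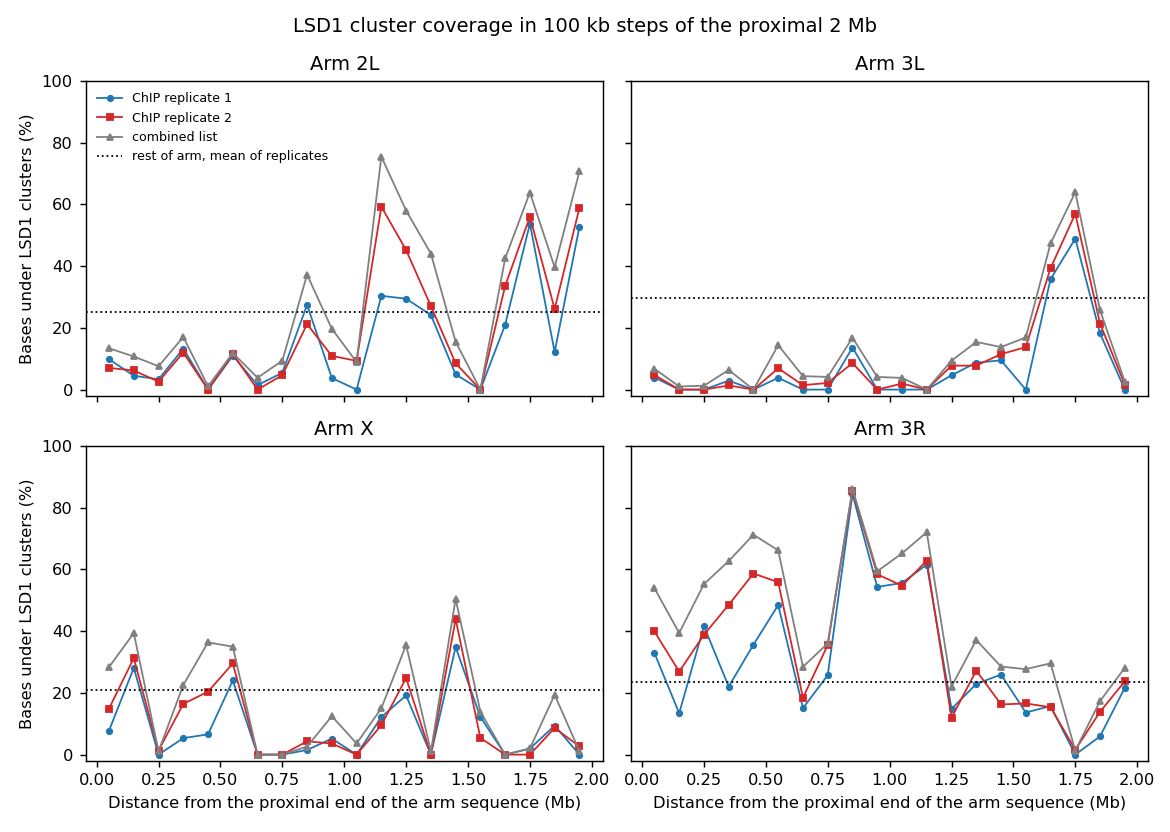
Percent of bases under LSD1 clusters in 100 kb steps (vertical axis) against the distance of the step from the proximal end of the arm sequence in Mb (horizontal axis, end at left), for replicate 1 (circles), replicate 2 (squares) and the combined list (triangles). The dotted line is the rest of the arm, as the mean of the replicates. The lines stay low for 1600 kb on 3L, climb unevenly on 2L, alternate on X, and on 3R peak at 84.4% to 86.1% between 800 and 900 kb.

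Long stretches without any cluster interrupted the proximal windows. Gaps of at least 20 kb took up 84.6% of the window of 3L in replicate 1 and 79.3% in replicate 2, against 51.5% and 42.9% of the rest of the arm. On X they took up 84.0% and 75.9%, against 60.1% and 59.9% of the rest. On 2L it was 67.3% and 57.7% against 58.7% and 50.2% on the rest of the arm, and on 3R 49.1% and 35.2% against 60.8% and 51.2%. The windows of 3L, X and 2L thus held more gap sequence than the rest of their arms in each replicate, and that of 3R less.

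Within the proximal windows, some stretches of at least 100 kb were empty in all 3 lists at once. On 3L there were 4, from 23333711 to 23483439, from 23834059 to 23936861, from 24030633 to 24219313 and from 24385551 to 24524774. On X there were 3, of which that from 21594293 to 21844689 (250397 bp) was the longest of the 4 windows, followed by 20632589 to 20867223 (234635 bp) and 21252801 to 21391829 (139029 bp). On 2L the longer one ran from 21401937 to 21571945 (170009 bp) and the other from 22537617 to 22642491 (104875 bp). In the replicates taken alone, the first of these 2L gaps began at 21397451 in replicate 1 and 21401583 in replicate 2 and ended at 21571972 and 21572514. The borders of this gap were thus close to each other in separate libraries. The window of 3R held no such stretch. Their number on the rest of the arms is not given here, so they cannot be called particular to these windows.

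The sequence ends themselves also differed. On 3R the nearest cluster of the combined list began 389 bp from the start of the sequence, from 390 to 8334, at 0.72 on the log2 scale, where each replicate also had a cluster. On 3L the nearest member lay 11499 bp from the end, from 24528222 to 24532058, with 0.81 there. Replicate 1 had 0.98 and replicate 2 0.91 at this place. On X it lay 3555 bp from the end, from 22416994 to 22419272 (0.57), and only replicate 2 had a cluster there. On 2L the nearest was a cluster of 1055 bp from 22975268 to 22976322 (0.48) that neither replicate had, 35222 bp from the end. Single clusters at or near the end thus occurred on all 4 arms, also where the surrounding steps were poor. One further cluster of the combined list, on 3L from 24543088 to 24544388 with 1.48, runs 831 bp past the length of 3L in the file headers. Its midpoint lies beyond the sequence, so it was not counted as a member, though its bases up to the end are in the coverage.

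The distance from the end to the first broad domain ordered the arms in another way. On X it was 165661 bp in the combined list, to a domain of 20659 bp from 22236508 to 22257166 with a value of 0.89. On 3R it was 270075 bp, to one of 21749 bp from 270076 to 291824 with 0.70. On 2L it was 1139644 bp, to one of 10671 bp from 21861230 to 21871900 with 0.52, and on 3L 1658305 bp, to one of 11271 bp from 22873982 to 22885252 with 0.86. Replicate 1 and replicate 2 gave 165519 and 166149 bp on X, 271439 and 297099 bp on 3R, 1172975 and 1252588 bp on 2L, and 1658331 and 1687734 bp on 3L. The order X, 3R, 2L, 3L was the same in each list.

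Each cluster also carries one value from the authors, read here as a log2 ratio of ChIP over input and compared within a list only. The proximal clusters of 3L had a median of 0.77 in replicate 1 and 0.74 in replicate 2, against 0.62 and 0.61 on the rest of the arm, a difference of 0.14 ± 0.02 (SD, n = 2). On 2L the medians were 0.72 and 0.66 against 0.62 and 0.61 on the rest, a difference of 0.08 ± 0.04. On 3R they were 0.68 and 0.62 against 0.61 and 0.58, a difference of 0.05 ± 0.02. On X the replicates differed in sign, with 0.68 against 0.71 on the rest of the arm in replicate 1 and 0.72 against 0.66 in replicate 2. Clusters on 3L were therefore few but had the larger median value, and the coverage of an arm did not tell the direction of its values. The 5th percentile of the values moved with this on 3L, at 0.52 and 0.50 in the proximal window against 0.39 and 0.38 on the rest, and a higher lowest callable value cannot be told apart from stronger enrichment without read numbers.

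Within the windows, median values were larger in the inner megabase than in the outer one on all 4 arms and in both replicates, 8 of 8 comparisons. On 3L replicate 1 had 1.11 in the inner and 0.70 in the outer megabase, and replicate 2 had 0.83 and 0.71. On 2L they were 0.88 in the inner and 0.65 in the outer megabase in replicate 1, and 0.71 and 0.65 in replicate 2. The differences were small on X, 0.04 and 0.03, and on 3R, 0.08 and 0.06. Among clusters of 10 kb or less the direction was the same in 8 of 8. The median width was larger in the inner megabase in only 4 of 8, while the 5th percentile of the values was higher there in 7 of 8, all but X in replicate 1. The inner megabases of 3L held only 10 and 12 clusters in replicate 1 and replicate 2, and those of 2L 26 and 31, so their medians rest on few sites. Coverage ran against the values on 2L, where the inner megabase was covered to 8.00% and 7.62% and the outer to 22.9% and 32.4%, and with them on 3R, where the inner had 37.4% and 46.7% and the outer 23.8% and 24.4%.

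**Figure D4:**
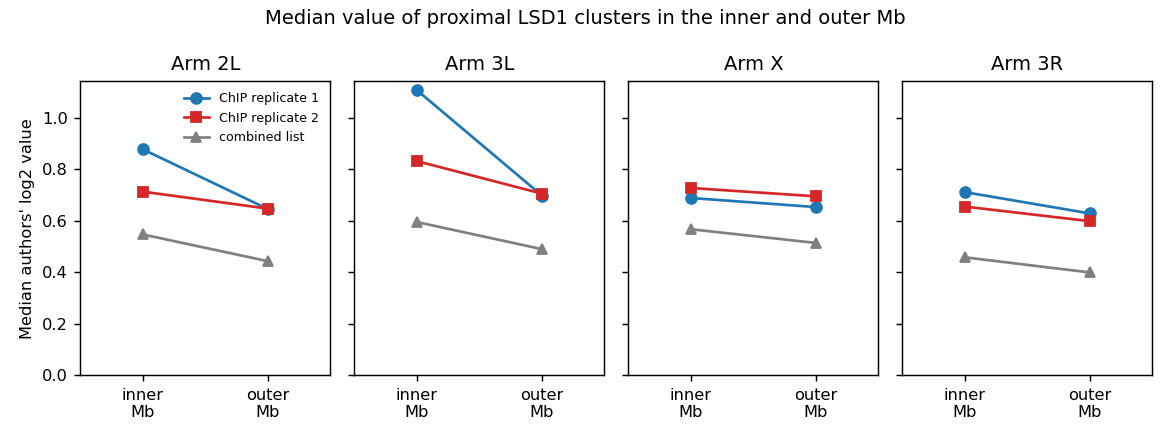
Median of the authors' log2 value (vertical axis) of the proximal LSD1 clusters in the inner and the outer megabase of each window, for replicate 1 (circles), replicate 2 (squares) and the combined list (triangles). Every line slopes down from the inner to the outer megabase, most of all in replicate 1 on 3L, where the medians are 1.11 and 0.70. Levels of different lists are not comparable.

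Of the 554 members, 176 (31.8%, exact 95% binomial interval 27.9 to 35.8) overlapped a cluster of each replicate by at least 1 bp, where 38.1% of the whole combined list did. Replicate 2 alone matched 157 (28.3%, interval 24.6 to 32.3) and replicate 1 alone 58 (10.5%, interval 8.05 to 13.3), against 22.3% and 10.4% on the rest of the 4 arms. No replicate cluster matched 163 (29.4%, interval 25.7 to 33.4), against 29.1% in the whole list. With a reciprocal overlap of at least 50%, 120 members (21.7%) were matched in both replicates, against 25.1% of the whole list. Of the 352 members at or above the median value of the list, 156 (44.3%) overlapped both by at least 1 bp, against 61.8% of all such clusters of the list. The intervals cover counting error only. The share found in both was 36.0% on 3R, 31.8% on 3L, 30.6% on 2L and 26.4% on X, against 36.8%, 38.0%, 39.6% and 39.1% on the rest of these arms. The intervals were 29.1 to 43.4 on 3R, 22.3 to 42.6 on 3L, 23.8 to 38.1 on 2L and 18.4 to 35.6 on X. Those of 3R and 3L included the share on the rest of the arm, and those of 2L and X did not. Clusters of a list are not replicates, so the intervals are no test against the rest of the arm. The median of the 176 doubly matched members was 4279 bp in width and 0.65 in value, and they made up 67.0% of the summed width of the members. All 40 broad domains were among them. A wide cluster meets the 1 bp rule more easily than a narrow one. The same share of the 905 broad clusters of the whole list is not given here, so this cannot be called particular to the members. The combined list was made from both replicates and is not independent of them, so these shares are a description.

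Seen from the replicates, 209 of the 268 proximal clusters of replicate 1 (78.0%, interval 72.5 to 82.8) had a partner in replicate 2, where 80.9% of its whole list had one. For replicate 2 the count was 240 of 426 (56.3%, interval 51.5 to 61.1), where 66.3% of its whole list had a partner in replicate 1. The lower share in replicate 2 was most marked on X, with 40 of 79 (50.6%, interval 39.1 to 62.1) against 76.2% on the rest of X. In bases, 45.2% of what either replicate covered on proximal X was covered by both, against 62.8% on the rest of X. The same measure was 52.1% against 65.5% on 2L, 55.6% against 68.2% on 3L, and 67.8% against 65.1% on 3R. By this measure the 3 arms with less coverage near the centromere also had less agreement between the libraries there, and 3R did not. The fall was smaller seen from replicate 1. Of its proximal bases, replicate 2 also covered 71.2% on X, 78.7% on 2L and 80.4% on 3L, against 73.6%, 84.4% and 84.6% on the rest. Of the proximal bases of replicate 2, replicate 1 also covered 55.3%, 60.7% and 64.4%, against 81.1%, 74.5% and 77.9%. Overlap by chance is also lower where less is covered, and its part in these values was not tested.

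Among the members found in both replicates, 3R had the largest value, 1.44 for a domain of 17063 bp from 877718 to 894780. It was a single cluster in each replicate, with 1.65 in replicate 1 and 1.22 in replicate 2. Right beside it lay the widest member of all, 56133 bp from 898202 to 954334, with 1.10, which replicate 1 covered in full by 1 cluster and replicate 2 to 95.7% by 3. The domain from 483376 to 527206 (43831 bp) had 1.21 and was covered to 98.8% and 99.2% by replicate 1 and replicate 2. The domain from 786014 to 828700 (42687 bp, 0.91) was split into 4 clusters in each replicate. That from 1183454 to 1195494 (12041 bp) reached 1.204. The domains beginning at 786014, 877718 and 898202 all lay wholly or partly in the richest step.

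On 2L the largest value of a member found in both, 1.35, belonged to a compact site of 3851 bp from 22689544 to 22693394, only 318150 bp from the sequence end. It was a single cluster in each replicate, with 1.48 in replicate 1 and 1.21 in replicate 2, and stood in the step from 300 to 400 kb, which clusters covered to 13.3% and 12.0%. The next lay in the rich outer part, a domain of 25009 bp from 21233702 to 21258710 with 1.24, also the widest of 2L, and one of 16499 bp from 21742690 to 21759188 with 1.11. Replicate 1 covered the wider one to 94.6% by 1 cluster and replicate 2 to 95.8% by 2. The domain from 21815904 to 21839650, of 23747 bp, had a value of only 0.63 and was covered to 59.6% by replicate 1 and 85.7% by replicate 2. One of 22061 bp from 21296708 to 21318768 had 0.72, with 97.7% and 88.9%.

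On 3L the members found in both replicates that had the largest values were compact, and those with the largest widths lay together at the outer side. The largest value of a member found in both, 1.12, was at 24020356 to 24024150 (3795 bp), the next, 1.09, at 23089810 to 23094874 (5065 bp) and the third, 1.06, at 23141160 to 23144396 (3237 bp). The 3 broad domains ran from 22811872 to 22826044 (14173 bp, 0.98), from 22826302 to 22859020 (32719 bp, 1.04) and from 22873982 to 22885252 (11271 bp, 0.86). Replicate 1 joined the first pair into a single cluster of 46610 bp with 1.23, its widest on proximal 3L. All 3 domains were covered to at least 93.0% in each replicate.

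On X the largest value of a member found in both was 1.14, at a site of 2627 bp from 21522808 to 21525434. Replicate 1 had 0.82 and replicate 2 1.48 there, each on the scale of its own list. A site of 2753 bp from 22101280 to 22104032 had 1.08, with 0.82 in replicate 1 and 1.61 in replicate 2. Both were covered less in replicate 1, to 57.3% and 57.6%, than in replicate 2, to 98.3% and 93.1%. The widest was the domain of 20659 bp nearest the end, covered to 94.8% and 95.2%, followed by one of 15755 bp from 21140834 to 21156588 (0.80) and one of 13299 bp from 20933448 to 20946746 (0.83). The one from 20933448 was a single cluster in replicate 1 and was split into 3 in replicate 2.

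**Figure D5:**
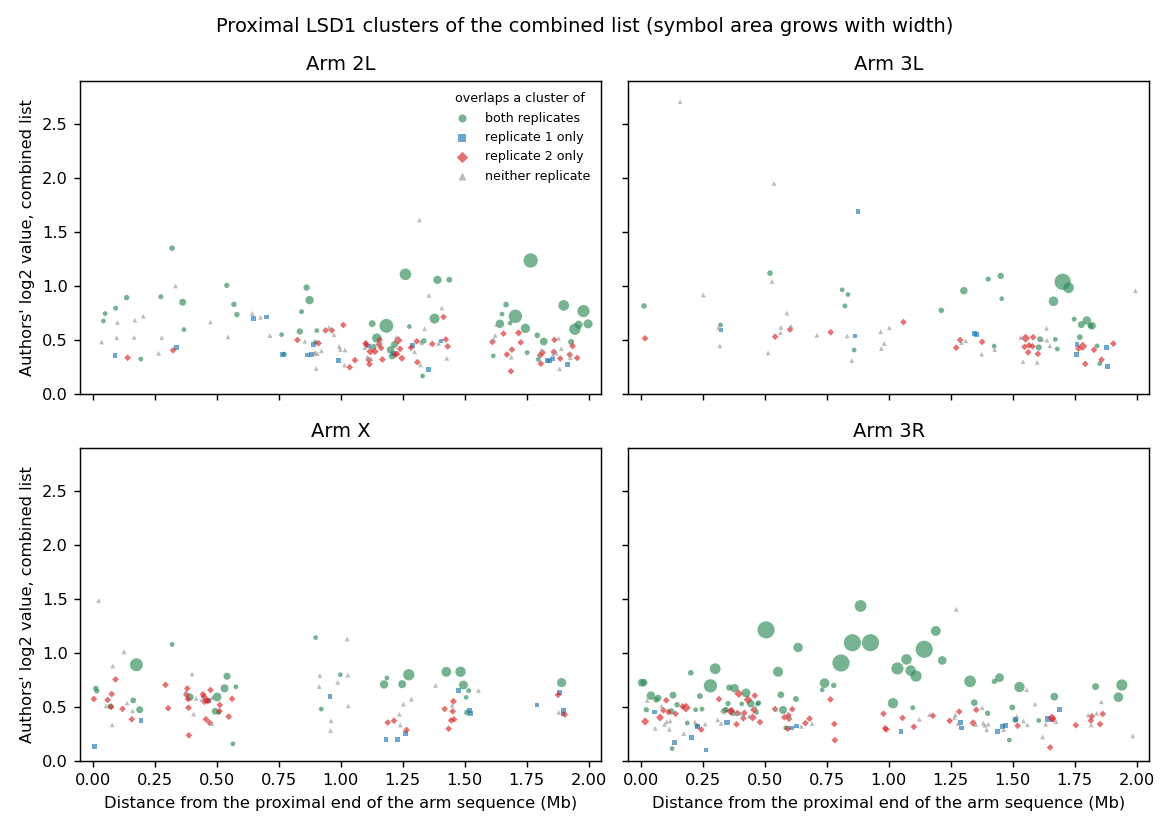
The 554 proximal LSD1 clusters of the combined list by distance of their midpoint from the proximal end of the arm sequence in Mb (horizontal axis) and the authors' log2 value (vertical axis). Colour and shape give the replicates that had an overlapping cluster, and symbol area grows with cluster width. Clusters over 10 kb are all of the kind found in both replicates, with 21 on 3R, 11 on 2L, 5 on X and 3 on 3L. Those of 2L and 3L all lie in the outer megabase. The 3 largest values, all on 3L, belong to narrow clusters not found in both.

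Clusters without a partner in the other replicate also reached large values. In replicate 1 the 59 proximal clusters without a partner had a median value of 0.59, and the largest were 3.08 on 3L from 23665997 to 23668462 and 1.16 on 2L from 22308851 to 22310852. In replicate 2 the 186 without a partner had a median of 0.62, and the largest were 1.86 on X from 21592547 to 21594292 and 1.05 on 2L from 21596447 to 21597823. The one on X is outside the combined list and ends at the base before the longest stretch empty in all 3 lists. In the combined list the largest values of any member were 2.71 on 3L from 24384550 to 24385550 and 1.95 on 3L from 24005344 to 24006454, found in neither replicate and singled out after their values were seen. These clusters were short, from 1001 to 2466 bp, and how many input reads lie behind them is unknown.

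At the border of the windows, the member just inside 2L ran from 21009688 to 21019902 with 0.65 and the cluster just outside from 21000652 to 21009650 with 0.62. On 3L they were at 22548588 to 22549730 (0.95) inside and 22483738 to 22484954 (0.49) outside. On X the one inside ran from 20519144 to 20520300 (0.43) and the one outside from 20395188 to 20397248 (0.46). On 3R it was 1982948 to 1984176 (0.23) inside and 2019942 to 2022284 (0.56) outside. The first of these, on 2L, was the only cluster of the combined list that crossed a border.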

How the data were processed

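LSD1 ChIP-seq was analysed from 3 deposited lists of enriched regions, 1 for each of the 2 ChIP libraries and 1 for the replicate set. The value per region was read as the authors' deposited log2 ratio, though no header names its unit: in each list the 2 commonest values differ by the log2 of a simple ratio (15/14 in both replicates, 9/8 in the combined list), and by no such ratio with the natural log or the log to base 10. Bowtie 0.12.7 is named in the submitters' processing notes. The caller and its threshold, how ChIP was scaled to input, and how the combined list was made: not given in the sources used here. Positions are 1-based in the FlyBase release 5 build named by the file headers.

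Coverage is the percent of bases under clusters, in steps of 100 kb and in the 2 Mb windows. Lists were matched by overlap of at least 1 bp, and shares carry exact 95% binomial intervals. Windows, lists of regions and alternatives were chosen with earlier results of these data known. Named clusters are, per arm and among those found in both replicates, the top 3 by value and the top 3 by width, further the cluster and the broad domain nearest the end, those at the border, and the top 2 unmatched clusters of each replicate. The inner and outer megabases, the 500 kb stretches, the gaps and the 2 Mb windows along the arms were added after the lists were seen. The 1 region listed as depleted was left out. Coverage and overlap functions were tested on simulated data. Alternatives changed the window, step, value threshold, overlap rule, cluster width, list and replicates used. Python 3.11.15, numpy 2.4.6, pandas 2.3.3, scipy 1.17.1 and matplotlib 3.10.9 were used.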

Additional observations from a re-analysis of the deposited data

How the results depend on the processing

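No paired analysis was possible because the numbers are shared by ChIP and input libraries and no list of an input library was used here. The proximal window and the rest of an arm were compared within each library throughout. Of 76 alternative values, 55 moved by less than the spread between replicates (for the share found in both, by less than its interval). The 24 that leave out a replicate each lie within that spread by construction, apart from the sign of the X difference. The lists give no read numbers, so what depth limits was not measured, and the cause of each move was not tested.

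Every alternative kept the coverage ratio of the proximal window to the rest of the arm below 1 on 2L, 3L and X and above 1 on 3R. With a 1 Mb window the ratio was 0.311 on 2L, 0.086 on 3L and 1.79 on 3R, and with a 3 Mb window 0.780, 0.422 and 1.15. The combined list gave 0.796 on 2L, 0.319 on 3L and 1.36 on 3R, and clusters at or above the list median 1.53 on 3R. Leaving out a replicate gave 0.654 to 0.749 on 2L, 0.265 to 0.304 on 3L, 0.381 to 0.541 on X and 1.38 to 1.45 on 3R.

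The stretch under 50% of the rest of the arm was 550 ± 354 kb on 2L, 1600 kb on 3L, 50 ± 71 kb on X and 0 kb on 3R (n = 2). Under 25% in place of 50% it was 0 kb on 2L and 800 kb on 3L. In steps of 50 kb it was 200 kb on 2L and 1175 kb on 3L, and with clusters at or above the list median 400 and 1150 kb. Steps of 200 kb and the combined list each gave 800 kb on 2L and 1600 kb on 3L. Leaving out a replicate gave 300 to 800 kb on 2L and 0 to 100 kb on X.

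The difference of median log2 values, proximal minus rest, was 0.18 on 2L, 0.35 on 3L and 0.089 on 3R with a 1 Mb window, and 0.11 on 3L in the combined list. Leaving out a replicate gave 0.05 to 0.11 on 2L, 0.12 to 0.15 on 3L, -0.028 to 0.063 on X and 0.04 to 0.07 on 3R. The share of members found in both replicates was 21.7% with a reciprocal overlap of at least 50%, where 25.1% of the whole combined list was, and 44.3% for members at or above the list median, where 61.8% of all such clusters was.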

Other observations

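On each arm, replicate 2 exceeded replicate 1 in covered bases by more in the proximal window than over the rest of the arm as a whole. The ratio of replicate 2 to replicate 1 was 1.30 in the proximal window of 2L against 1.13 on the rest of the arm, 1.25 against 1.09 on 3L, 1.29 against 0.91 on X and 1.16 against 1.11 on 3R. On X the direction thus differed between the proximal window and the rest of the chromosome. In cluster numbers, the inner megabase of X held 28 in replicate 1 and 52 in replicate 2, while the outer one held 25 and 27. This difference was not tested.

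Members that neither replicate had were short, with a median width of 1219 bp, and made up 10.8% of the summed width of all members. The narrowest proximal cluster was 1001 bp wide for the combined list, but 1302 bp (replicate 1) and 1303 bp (replicate 2) for the others. That median of 1219 bp thus lay below the width of every proximal replicate cluster. How far these unequal minimum widths account for the shortness, and for members lacking a match, was not tested. The median value of members of neither replicate was 0.46. It lay above the 0.44 of members found in replicate 2 only and the 0.37 of those found in replicate 1 only. On 3R the first order was turned, with 0.37 for members of neither replicate and 0.40 for those of replicate 2 only. On 3L the second was, with 0.529 for members of neither replicate and 0.535 for the 9 of replicate 1 only. The largest value of a member of neither replicate was 1.61 on 2L, 2.71 on 3L, 1.49 on X and 1.40 on 3R.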
